A study of Mus musculus with 8 samples.

Results

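Cysteine and glutathione synthesis was followed here through 10 genes chosen by name: the methionine cycle enzymes Mat2a and Ahcy, the transsulfuration enzymes Cbs and Cth, the cystine carrier Slc7a11, both subunits of glutamate-cysteine ligase (Gclc and Gclm), glutathione synthetase Gss, glutathione reductase Gsr and the glutathione-cleaving enzyme Chac1. Of these, 9 had at least 1 probe set whose annotation gave a single symbol, of 17097 such genes in all, and all 9 were among the 12250 genes that passed the filter on low values. Mat2a was not analysed here. Where a gene had several probe sets, that with the highest mean over the 8 arrays stands for it. The gene list was drawn up with earlier results of these arrays known, Cth among them, so a count over the list is a description and carries no test of its own.

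Expression was measured on 8 Affymetrix mouse arrays hybridised with total RNA of acute myeloid leukaemia (AML) cell lines, 4 per group. The group labelled Trib1 hi expresses Hoxa9, a homeobox factor that drives myeloid leukaemia, together with Trib1, a pseudokinase that brings about degradation of C/EBP alpha; the group labelled Trib1 null expresses Hoxa9 alone. Both groups share their background: the leukaemias arose in mice homozygous for a knock-out of Trib1, and the cells, given no treatment, were cultured in IMDM medium containing 5 ng/ml of the cytokine IL-3 and 10% serum of fetal calves. The vectors, the age of the mice and the number of separate lines or cultures behind the 4 arrays of a group are not stated in the labels, and the spread between arrays that the p-values measure may thus be technical.

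The arrays differed in shape as well as by group. The 75th percentile of intensity ran from 15.5 to 422 and was highest on Trib1 hi 3, and the 99th percentile, 11618 to 17007, was lowest there. A background control probe set read from 11.4 to 379. For that reason folds are given after signals below 500 were set to 500, and where some array of 1 group lay under 500 the fold is a lower bound, written "at least". The brighter Trib1 probe set gave 5.92 to 122 under the label Trib1 hi and 206 to 304 under the label Trib1 null. That is against the label, but all 8 values lie below 500, and where the probes lie relative to the deleted part is not given. Hoxa9, which both groups are labelled to express, gave 107 ± 189 under the label Trib1 hi and 1024 ± 43.5 under the label Trib1 null (SD, n = 4 each; adjusted p = 5.15e-06). Every direction below therefore follows the labels only. Among myeloid markers, 7 of 12 read 500 or more on all arrays (Ptprc, Itgam, Cebpa, Elane, Prtn3, Ctsg and Lyz2). Spi1, Cd33, Csf3r and Mpo did so on some arrays only. All 12 myeloid markers were tested, and 3 were higher and 5 lower under the label Trib1 hi. The 4 B cell, 6 T and NK cell and 3 erythroid markers with a probe set stayed below 500 on all 8 arrays, and of 6 stromal markers only Pecam1 rose above it. Of 6 mast cell and basophil markers, Cpa3, Mcpt8 and Gata2 exceeded 500 on all arrays. The other 3 stayed below 500 on all arrays. Of the 5 markers of that list that were tested, 2 were higher under the label Trib1 hi and 1 was lower. Of all genes tested 11.1% were higher and 19.7% lower. The summed signal of that list was 22055 to 31499 under the label Trib1 hi and 6811 to 7280 under the other label. The part of that list in the results below was not tested.

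Cells obtain cysteine either by importing cystine or by making it from methionine. In the second route methionine is turned into S-adenosylmethionine and homocysteine, Cbs joins homocysteine to serine, and Cth splits the product, cystathionine, to release cysteine. Glutamate-cysteine ligase then couples cysteine to glutamate, Gss adds glycine to give glutathione, Gsr recycles its oxidised form, and Chac1 breaks it down again. Genes of this pathway are known targets of ATF4, the transcription factor of the amino acid response, and of NRF2, the transcription factor of the oxidative stress response.

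The upstream sequences of 3 of the genes are shown because they carry the sequence elements those factors are known to bind, and because the genes read differently on the arrays. Of the 10 genes, 7 had an entry in the RefSeq promoter table of build GRCm38.p6, which holds 250 bases before to 50 bases after each start. Cth, Gclc and Gsr had none. Bases before the start are printed, 5′ to 3′ on the gene's strand, for Chac1 and Slc7a11 up to the start itself. The Gclm stretch is 180 bases long and stops 70 bases short of the window's start site, where the annotated span of the gene begins. Capitals mark a C/EBP-ATF response element in the first pair and an antioxidant response element in the third.
Chac1: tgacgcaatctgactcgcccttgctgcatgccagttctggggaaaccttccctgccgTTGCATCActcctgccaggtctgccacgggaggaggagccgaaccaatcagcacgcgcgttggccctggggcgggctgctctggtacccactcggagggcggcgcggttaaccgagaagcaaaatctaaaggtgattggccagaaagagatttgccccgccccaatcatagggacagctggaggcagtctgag
Slc7a11: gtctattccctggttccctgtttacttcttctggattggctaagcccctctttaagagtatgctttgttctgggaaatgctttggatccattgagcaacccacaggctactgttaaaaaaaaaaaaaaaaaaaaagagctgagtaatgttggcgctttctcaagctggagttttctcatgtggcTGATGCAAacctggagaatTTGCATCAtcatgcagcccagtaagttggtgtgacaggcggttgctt
Gclm: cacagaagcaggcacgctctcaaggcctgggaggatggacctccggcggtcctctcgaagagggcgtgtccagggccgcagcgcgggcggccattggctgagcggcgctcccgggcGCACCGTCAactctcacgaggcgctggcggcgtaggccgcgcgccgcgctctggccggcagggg
The Chac1 stretch is chr2:119350992-119351241 on the plus strand, the Slc7a11 stretch chr3:50443614-50443863 on the minus strand and the Gclm stretch chr3:122245307-122245486 on the plus strand.

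Both strands of each 300-base window were searched for TGATGNAA (a C/EBP-ATF response element), TGACNNNGC (the core of an antioxidant response element) and TGACGTCA (a cAMP response element). The first stood in 3.97% of all 32851 promoters of the table and in 2 of the 7 here. Chac1 held 1 match, starting 193 bases before the start, and Slc7a11 held 2 in opposite orientation, starting 66 and 47 bases before it. The second stood in 12.4% of promoters and, of the 7, in Gclm alone, starting 134 bases before the start, which is 64 bases before the end of the printed stretch. The third stood in 1.79% of promoters and in 0 of the 7. These matches describe the letters in the window and were not tested as binding sites.

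Of the 9 genes measured, 4 were higher in the group labelled Trib1 hi (Ahcy, Cth, Gclc and Chac1), 1 was lower (Gss) and 4 did not pass the test. Of all 12250 genes tested, 11.1% were higher and 19.7% lower by the same rule, an adjusted p under 0.05 in limma, or 30.8% in either direction. The arrays of both groups did not overlap for 5 of the 9 genes, all higher under the label Trib1 hi (Cbs beside the 4), and for 13.5% of all genes in that direction and 15.8% in the other. Among genes that read 500 or more on all arrays of a group, 23.9% were higher and 33.5% lower. Of the 9 genes 6 read so, of which 4 were higher and 0 lower. Cth and Chac1 were among these 6 only through the arrays labelled Trib1 hi. After quantile normalization 3357 genes were higher and 3352 lower, against 1363 and 2409 in the values as deposited. The median log2 difference of the 9 genes was 0.99, against 0.04 for all genes tested. The 4 genes that rose act in the methionine cycle (Ahcy), in the release of cysteine (Cth), in the first step of glutathione synthesis (Gclc) and in glutathione breakdown (Chac1).

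**Figure D1:**
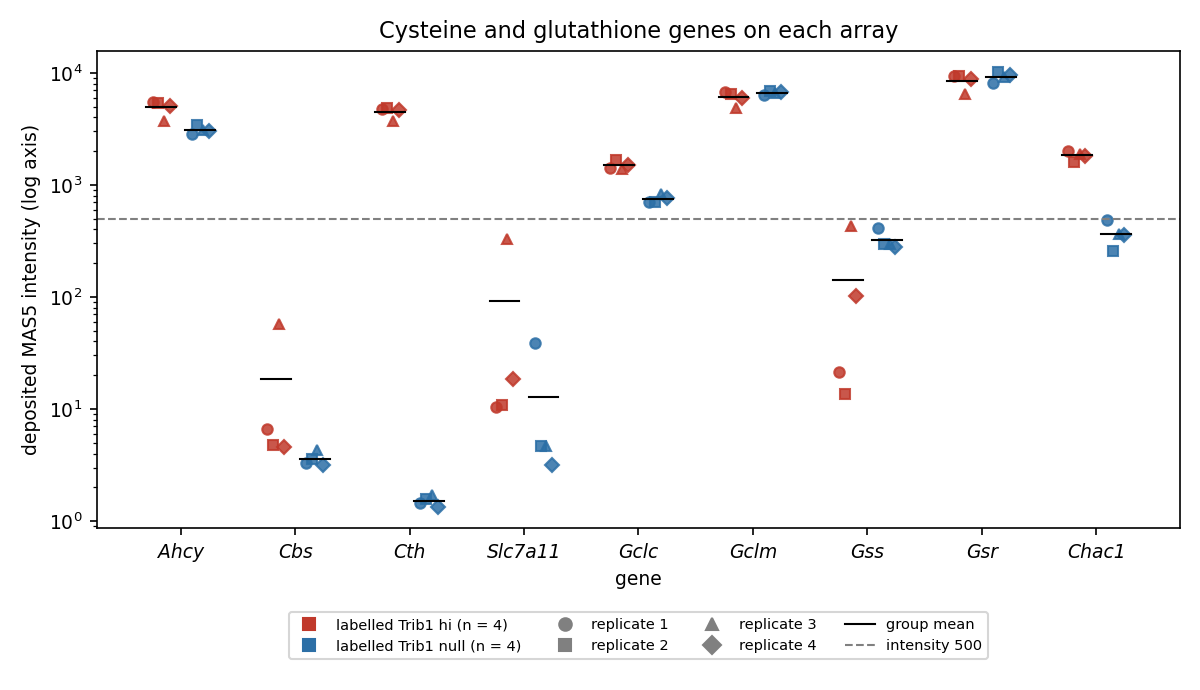
Deposited MAS5 intensity (log axis) of the 9 genes on each of the 8 arrays, red for the arrays labelled Trib1 hi, blue for those labelled Trib1 null; symbols mark the replicate number, black bars the group means and the dashed line an intensity of 500. Cth stands between 3703 and 4894 in red and under 2 in blue, Gclm and Gsr overlap, and Cbs, Slc7a11 and Gss lie below the line on all arrays.

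Ahcy, which hydrolyses S-adenosylhomocysteine to homocysteine, was the methionine cycle enzyme of the set. It read 5539, 5362, 3704 and 5024 on the arrays with the label Trib1 hi, replicates 1 to 4. On the arrays labelled Trib1 null it read 2825, 3453, 3109.7 and 2998. The groups did not overlap, although Trib1 hi 3 came close to the highest of the other group. Ahcy was 1.57-fold higher, with a log2 difference of 0.65 (SE 0.11, adjusted p = 1.14e-05) and means of 4907 ± 830.0 against 3096 ± 265 (SD, n = 4 each).

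Cth, the enzyme that releases cysteine from cystathionine, showed the widest gap of the 9 genes. On the arrays labelled Trib1 hi it read 4735, 4894, 3703 and 4665. On those labelled Trib1 null it read 1.44, 1.59, 1.71 and 1.34, below the median of each of those arrays (3.71 to 9.56). The gene was thus bright in 1 group and at the bottom of the scale in the other. The means were 4499 ± 539 and 1.52 ± 0.161 (SD, n = 4 each), which makes Cth at least 8.95-fold higher (adjusted p = 3.45e-12). The fitted log2 difference of 10.05 (SE 0.78) depends on how values near 0 are treated and was 2.16 with values under 1000 set to 1000. With bulk RNA, fewer cells that express a gene and less RNA per cell cannot be told apart.

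Cbs, which makes the cystathionine that Cth splits, was near the bottom of the scale in both groups. Its brighter probe set read 6.60, 4.77, 57.4 and 4.56 for Trib1 hi 1 to 4. For Trib1 null 1 to 4 it read 3.31, 3.57, 4.33 and 3.14. All values lay far below 500, and the single value above 10 was on Trib1 hi 3, the array with the brightest background. The groups did not overlap, but the difference missed the threshold (log2 difference 1.07, SE 0.80, adjusted p = 0.390). The other Cbs probe set read lower still, with means of 13.8 ± 20.1 and 3.28 ± 0.202 (SD, n = 4 each).

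Slc7a11, the exchange carrier that brings in cystine against glutamate, also read low on all arrays. Its brighter probe set gave 10.5, 10.8, 332 and 18.3 for Trib1 hi 1 to 4. For Trib1 null 1 to 4 it gave 38.8, 4.62, 4.64 and 3.15. The high reading in each group came from the arrays with the brightest background control, Trib1 hi 3 (379) and Trib1 null 1 (335), and the groups overlapped. The log2 difference of 1.64 (SE 1.52, adjusted p = 0.502) passed the threshold only after quantile normalization (2.75, adjusted p = 3.59e-07). The second probe set gave means of 66.9 ± 118 and 2.31 ± 0.221 (SD, n = 4 each) and an adjusted p of 0.117 in a limma fit over all probe sets. Thus the gene with 2 C/EBP-ATF elements in the window printed above was not read above 500 on any array.

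Of the subunits of glutamate-cysteine ligase, the enzyme that sets the rate of glutathione synthesis, Gclc passed the test and Gclm did not. Gclc, the catalytic subunit, read 1417, 1665, 1389 and 1514 for Trib1 hi 1 to 4. For Trib1 null 1 to 4 it read 701, 707, 827 and 766. The groups did not overlap and the arrays within each lay close together. Gclc was 1.99-fold higher (log2 difference 0.99, SE 0.12, adjusted p = 8.50e-08). Gclm, the modifier subunit that tunes the catalytic one, read 6769, 6529.9, 4896 and 5943 for Trib1 hi 1 to 4. For Trib1 null 1 to 4 it read 6346, 6879.6, 6613 and 6765. The groups overlapped, and the log2 difference was -0.15 with a 95% interval from -0.36 to 0.06 (adjusted p = 0.342). That interval reaches neither a doubling nor a halving. The Gclm difference passed as lower after quantile normalization (-0.27, adjusted p = 3.60e-06) and with equal 95th percentiles (-0.25, adjusted p = 4.67e-05).

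The ratio of the Gclc to the Gclm signal within an array was chosen after the values were seen and is given without a test. A common scale factor of the array drops out of it, but differences in shape or background between arrays do not. Its log2 value was -2.26, -1.97, -1.82 and -1.97 on the arrays labelled Trib1 hi. It was -3.18, -3.28, -3.00 and -3.14 on the arrays labelled Trib1 null. The groups did not overlap, and the SD was 0.183 and 0.117 (n = 4 each). The ratio shows unequal change of both probe sets and gives no ratio of the transcripts.

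Gss, which adds glycine to complete glutathione, read below 500 on all arrays. It gave 21.4, 13.6, 426 and 102 for Trib1 hi 1 to 4. For Trib1 null 1 to 4 it gave 415, 298, 297 and 279. The highest and the lowest reading both fell in the group labelled Trib1 hi, and the background control read 149 to 335 on the arrays of the other group. The log2 difference of -2.31 (SE 0.88) passed narrowly (adjusted p = 0.0458). The call ended on leaving out any array except Trib1 hi 3 (adjusted p = 0.0627 to 0.131) and after quantile normalization (-0.14, adjusted p = 0.409). No fold is given for Gss.

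Gsr, the reductase that returns oxidised glutathione to its reduced form with NADPH, was bright in both groups. It read 9375, 9399.6, 6407 and 8798 for Trib1 hi 1 to 4. It read 8167, 10070.1, 9164 and 9532 on the arrays labelled Trib1 null. The groups overlapped, and the log2 difference was -0.13 with a 95% interval from -0.38 to 0.11 (adjusted p = 0.491). The second Gsr probe set gave -0.15 (SE 0.11). As for Gclm, the difference passed as lower after quantile normalization (-0.20, adjusted p = 1.54e-05) and with equal 95th percentiles (-0.23, adjusted p = 4.06e-05). Without Trib1 hi 3 it shrank to -0.0031 (adjusted p = 0.975).

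Chac1, which cleaves glutathione inside the cell, had the second largest difference among the genes that rose. It read 2007, 1587, 1904 and 1817 for Trib1 hi 1 to 4. On those labelled Trib1 null it read 483, 258, 367 and 356, all under 500. The groups did not overlap, and the means were 1829 ± 179 and 366 ± 92.1 (SD, n = 4 each). Chac1 was at least 3.64-fold higher (fitted log2 difference 2.34, SE 0.17, adjusted p = 3.65e-13). Its relative Chac2, which also cleaves glutathione and was on a pathway list, had overlapping groups (1265 ± 118 against 1327 ± 39.0, adjusted p = 0.718).

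**Figure D2:**
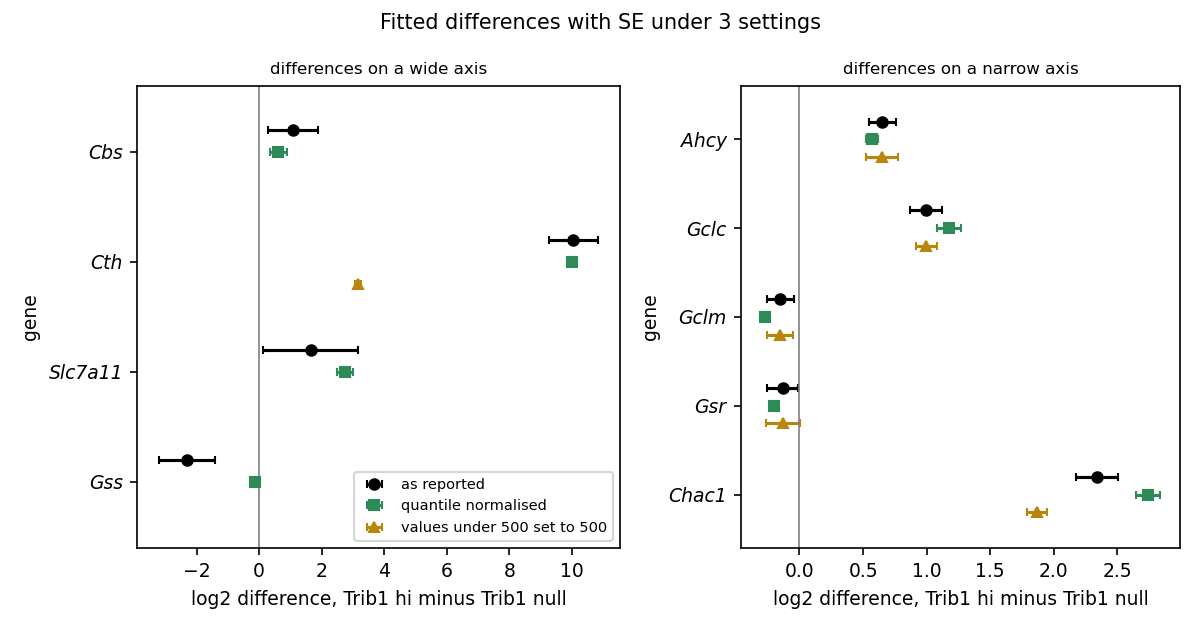
Fitted log2 differences, Trib1 hi minus Trib1 null, with SE, for the values as deposited (black circles), after quantile normalization (green squares) and with values under 500 set to 500 (yellow triangles, absent where all values lay under 500); the panels differ in the range of the horizontal axis. Ahcy, Cth, Gclc and Chac1 lie right of 0 in each setting, Gclm and Gsr just left of it, and Gss moves from -2.31 to -0.14 between the first and second setting.

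The calls of Ahcy, Cth, Gclc and Chac1 held in all 19 alternatives run, with adjusted p-values up to 0.0317, 3.67e-06, 0.00160 and 0.000636. Within the group labelled Trib1 hi, 6 of the genes read 500 or more on each array, and Trib1 hi 3 was the lowest of the 4 arrays for 5 of them (Ahcy, Cth, Gclc, Gclm and Gsr), at 75.4% of the group mean for the lowest. Chac1, where Trib1 hi 3 read 104% of the mean, was the exception. Within the group labelled Trib1 null, Trib1 null 1 was the lowest for all 4 genes over 500, at 88.5% to 95.4% of the mean. The coefficients of variation of these genes were 8.33% to 16.9% in the first group and 3.47% to 8.69% in the second.

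**Figure D3:**
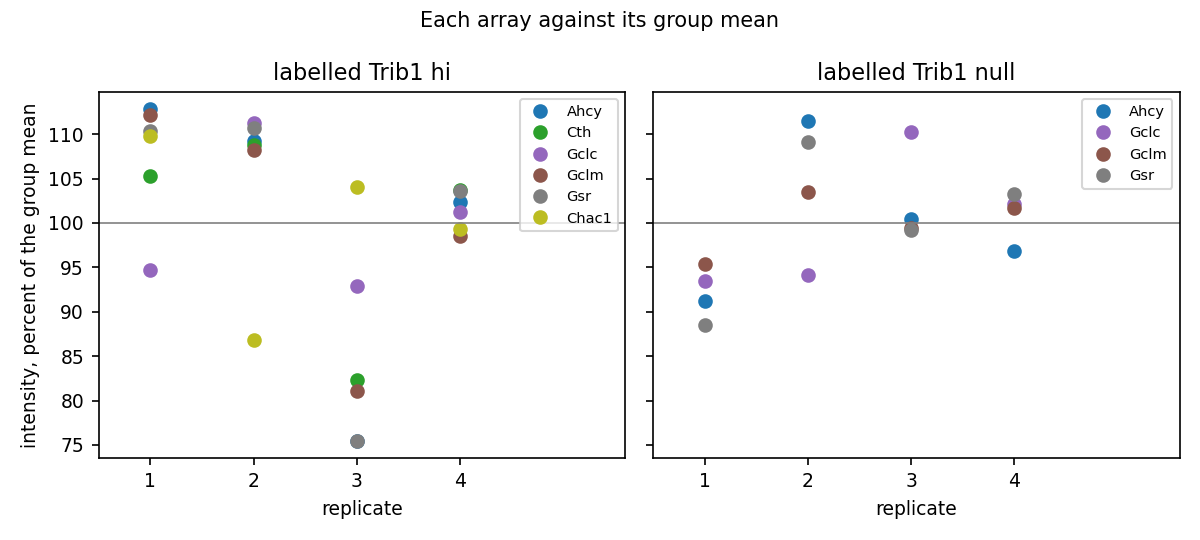
Intensity of each gene as a percent of its group mean by replicate, for genes at 500 or above on all arrays of the group; each point is 1 gene on 1 array. Trib1 hi 3 runs from 75.4% to 104% and Trib1 null 1 from 88.5% to 95.4%, while replicates are only numbered and have no order.

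The profile of Cth was compared with 5482 other genes that read 500 or more on at least 4 arrays, by Pearson correlation of log2 values over the 8 arrays after values under 500 were set to 500. The nearest were Ptgds, Mpo, Aqp9, Nebl and Rgs5, with r from 0.999908 to 0.999985. In these genes, as in Cth, all 4 arrays labelled Trib1 null fell below 500, so that r rests on the gap between the groups and on how the 4 arrays labelled Trib1 hi differ. Aqp9, a channel for water and glycerol, read 4193 ± 495 against 298 ± 74.3, and Mpo, the myeloperoxidase of primary granules, 5201 ± 755 against 2.92 ± 0.791 (SD, n = 4 each). Among the other cysteine and glutathione genes r with Cth was 0.990 for Chac1, 0.985 for Gclc, 0.905 for Ahcy, -0.29 for Gsr and -0.44 for Gclm. These r values also carry the gap of Cth between the groups. They are no evidence separate from the group differences given above.

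The surrounding pathway was followed through 8 lists of other genes, 122 genes in all, of which 101 were tested. Beside the main count of each list stands its share of the tested genes, to be read against 11.1% higher and 19.7% lower among all genes tested. Of 25 ATF4-linked genes tested, 18 rose under the label Trib1 hi (72%) and 2 fell (8%), with a median log2 difference of 1.23. Of the 18 that read 500 or more on all arrays of a group 16 rose and 1 fell, against 23.9% and 33.5% of all such genes. Some of these, Ddit3 among them, reached 500 only under the label Trib1 hi. Atf4 itself rose 2.95-fold (19577 ± 3657 against 6547 ± 397, adjusted p = 1.49e-11), a log2 difference of 1.56 that was 0.87 when its probe sets were averaged (adjusted p = 0.0243). Its partner and target Ddit3, the stress factor CHOP, rose at least 11.1-fold (5572 ± 791 against 409 ± 51.1), and Trib3, a stress-induced relative of Trib1, at least 9.10-fold. Stc2, a secreted glycoprotein, read 2115 ± 273 against 2.87 ± 0.181 (at least 4.21-fold, adjusted p = 1.26e-08). The glycine carrier Slc6a9 read 375 ± 159 against 40.2 ± 50.6 (adjusted p = 0.00983), which missed the threshold with Trib1 hi 1 (0.0751) or Trib1 hi 4 (0.0858) left out, with values under 500 set to 500 (0.475) and for the mean over its probe sets (0.258). Those that fell, chosen for mention once their values had been seen, were the kinases Eif2ak3 and Eif2ak4, which act upstream of ATF4 (677 ± 169.8 against 960.0 ± 58.0, and 328 ± 163 against 587 ± 123); the groups overlapped in both. Earlier results of these arrays had shown many of the list's genes, so its count is not independent evidence.

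Of 14 NRF2-linked genes tested, 1 rose (7.14%, against 11.1% of all genes) and 4 fell (28.6%, against 19.7%), with a median log2 difference of -0.23. Of the 8 that read 500 or more on all arrays of a group 1 rose and 2 fell, against 23.9% and 33.5% of all such genes. Blvrb was among the 8 only through the arrays labelled Trib1 null. Without Trib1 hi 3, 3 of the 14 rose and 7 fell, where 2103 of all 12250 genes rose and 3768 fell. Nfe2l2, which encodes NRF2, fell 1.33-fold (3126 ± 267 against 4154 ± 245, adjusted p = 0.000676), a log2 difference of -0.41 that was -1.95 when its probe sets were averaged. Bach1, a repressor at the same elements, read 2786 ± 210.2 against 3233 ± 136 (adjusted p = 0.0719). It passed as lower in 7 of 19 alternatives: both scalings, both floors, a pseudocount of 64, the stricter filter and without Trib1 hi 3 (adjusted p = 3.78e-05 to 0.0306). Hmox1, which breaks down heme, was lower (67.3 ± 116 against 467 ± 58.3, adjusted p = 0.00248), but not with values under 500 set to 500 (0.717). Blvrb, a biliverdin reductase, fell at least 1.90-fold (156 ± 205 against 958 ± 147, adjusted p = 1.60e-05), but missed the threshold with values under 1000 set to 1000 (0.185). The gene that rose was Txnrd1, thioredoxin reductase, with a log2 difference of 0.58 (4535 ± 683 against 3004 ± 135, adjusted p = 2.58e-05). Whether the ATF4 and NRF2 lists differ from each other was not tested.

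Among genes of cystine and cysteine entry, Slc3a2, the heavy chain that takes Slc7a11 and other light chains to the surface, rose 2.35-fold (9144 ± 1506 against 3850.5 ± 172, adjusted p = 5.51e-11). Slc1a5, a glutamine carrier, rose 1.72-fold (1984 ± 185 against 1153 ± 99.5, adjusted p = 5.98e-07), but missed the threshold when its probe sets were averaged (0.568). Mfsd12, which moves cysteine into melanosomes and lysosomes, fell at least 1.61-fold (549 ± 92.6 against 887 ± 89.7), and its direction turned when its probe sets were averaged (log2 difference 0.12, adjusted p = 0.933). Of 6 tested genes of this list 2 rose (33.3%) and 1 fell (16.7%, near the 19.7% of all genes), with a median log2 difference of 0.82.

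The list of cysteine use and breakdown also held genes of sulfide oxidation and sulfate activation. Of its 12 tested genes, 1 rose (8.33%) and 6 fell (50%, against 19.7% of all genes), with a median log2 difference of -0.51. Papss1 and Papss2, which activate sulfate, were among the 6 (log2 difference -0.67 and -0.59). Without Trib1 hi 3, 3 of the listed genes rose and 7 fell, where 2103 of all 12250 genes rose and 3768 fell. Of the 8 listed genes that read 500 or more on all arrays of a group 5 fell, where 33.5% of all such genes did. Ethe1, a dioxygenase of mitochondrial sulfide oxidation, fell 1.98-fold (1739 ± 103 against 3440.4 ± 55.0, adjusted p = 1.47e-10). Sqor, the quinone oxidoreductase that starts that pathway, fell 1.85-fold (2421 ± 175 against 4465 ± 150.2, adjusted p = 1.50e-09), but missed the threshold when its probe sets were averaged (0.937). Ado, a thiol dioxygenase acting on cysteamine, rose 1.64-fold (1389 ± 26.9 against 849 ± 32.6, adjusted p = 1.19e-05), and likewise missed it when averaged (0.613).

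Of 11 tested genes of the rest of the methionine cycle and of methionine salvage, 2 rose and 2 fell (18.2% each, near the shares of all genes). The median log2 difference was 0.15. Without Trib1 hi 3, 5 rose and 4 fell, where 2103 of all 12250 genes rose and 3768 fell. Without Trib1 null 1, 3 or 4, 1 fell, where 2000 to 2042 of all genes did. Mtap, which starts the salvage of methionine from methylthioadenosine, rose 2.73-fold (2674 ± 319 against 982 ± 127, adjusted p = 3.29e-12). Adi1, a later enzyme of that salvage, rose 1.46-fold (1600 ± 47.1 against 1100.2 ± 165, adjusted p = 0.000287). Mri1, another of its enzymes, fell 1.40-fold (1793 ± 82.7 against 2508 ± 218, adjusted p = 0.000157). Apip (adjusted p = 0.914) and Enoph1 (0.112), also of that salvage, did not pass the test. Ahcyl2, a relative of Ahcy without known hydrolase activity, was below 500 on all arrays (7.15 ± 7.43 against 277 ± 107, adjusted p = 0.0176), which missed the threshold when its probe sets were averaged (0.494), with the replicate number as a block (0.0507), and without Trib1 null 1, 3 or 4 (0.0751 to 0.0875).

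Of 10 tested genes of glutathione breakdown and salvage, 1 rose (10%) and 2 fell (20%), with a median log2 difference of 0.11. These shares lie close to the 11.1% and 19.7% of all genes. Lap3, a peptidase that splits cysteinylglycine, rose 1.34-fold (1921 ± 128 against 1431 ± 47.6, adjusted p = 0.00113), and the export pump Abcc4 fell 1.31-fold (1830 ± 79.0 against 2406 ± 136, adjusted p = 0.00120). Of 18 tested users of glutathione and thioredoxin, 5 rose (27.8%) and 6 fell (33.3%), with a median log2 difference of -0.21. Of the 14 that read 500 or more on all arrays of a group 5 rose and 5 fell, and among all such genes 23.9% and 33.5% did. Glrx, the cytosolic glutaredoxin, fell 2.41-fold (4623 ± 551 against 11114 ± 683, adjusted p = 1.51e-11). Glo1, which clears methylglyoxal with glutathione, fell 1.66-fold and Prdx2, a peroxiredoxin, 1.59-fold (log2 difference -0.67, and -1.20 when its probe sets were averaged). Of 10 tested genes of NADPH supply, which Gsr depends on, 2 rose (20%) and 4 fell (40%), with a median log2 difference of -0.31. Of the 8 that read 500 or more on all arrays of a group 2 rose and 4 fell, against 23.9% and 33.5% of all such genes. Idh1, the cytosolic isocitrate dehydrogenase, fell 2.34-fold (4604 ± 566 against 10709 ± 667, adjusted p = 3.28e-11) and the transhydrogenase Nnt 1.56-fold. Nadk2, the mitochondrial NAD kinase, fell 2.02-fold (893 ± 144 against 1789 ± 74.7), but missed the threshold when its probe sets were averaged (adjusted p = 0.902).

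**Figure D4:**
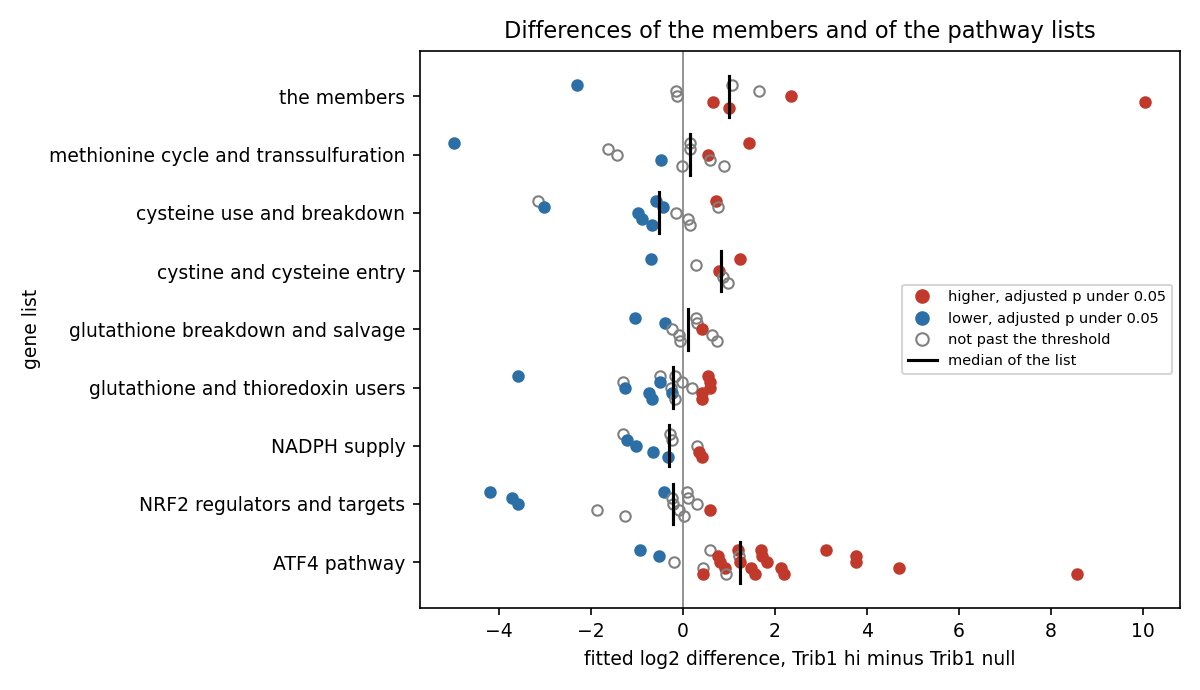
Fitted log2 differences, Trib1 hi minus Trib1 null, of the 9 genes (top) and of the tested genes of the 8 pathway lists, each point 1 gene, red where higher and blue where lower at an adjusted p under 0.05, open where not past the threshold; black bars are medians. The ATF4 list has 18 red points of 25 and a median of 1.23, and the list of cysteine use and breakdown has 6 blue points of 12 and a median of -0.51.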

How the data were processed

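The authors deposited 1 table with a linear MAS5 intensity for 45141 probe sets on each of 8 arrays. Per the submitters' processing notes MAS5 made the values; its version, the genome build and detection calls are not stated there. On each array the intensities as deposited had a 2%-trimmed mean of 500.1 to 500.2. Gene names came from the platform annotation: 28898 probe sets had 1 symbol, 551 several, and 15692 no listed gene, 104 of these being controls.

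Values were tested as log2(intensity + 2.71), 2.71 being the 25th percentile of all values, for genes with a mean over 3.01 (40th percentile). limma 3.58.1 in R 4.3.3 (lmFit, eBayes with a mean-variance trend) compared 4 arrays with 4, two-sided, with Benjamini-Hochberg adjustment over 12250 genes and a threshold of 0.05. Every adjusted p is from limma. Because background limits what can be read below 500, folds use a limit of 500, which can understate the change of dim genes. The number of arrays limits the precision.

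The genes, the 8 pathway lists (methionine cycle, cysteine use, cystine entry, glutathione breakdown, glutathione and thioredoxin users, NADPH supply, NRF2, ATF4) and the cell type markers were chosen with earlier results of these data known. The text names the 10 genes, up to 3 genes per list with the largest difference past the threshold and no overlap between groups, Atf4, Ddit3, Nfe2l2, Bach1, Slc3a2, and the 5 genes most like Cth. Chac2, Eif2ak3, Eif2ak4, Idh2, Prdx3, Glrx2, Glrx3, Glrx5, Txn1, Txn2, Txnrd2 and Nadk were added after their values were seen. So were Mri1, Apip, Enoph1, Papss1 and Papss2. Alternatives were quantile normalization, equal 95th percentiles, pseudocounts of 16 and 64, floors of 500 and 1000, other filters, the mean of probe sets, no trend, a replicate block and each array left out. The fit was tested on simulated data with 200 changed genes.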

Additional observations from a re-analysis of the deposited data

Results flagged for a closer look

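In 8 of 72 groups of 4 arrays examined, 1 array lay far from the other 3, by a rule that chance meets in about 1 group of 20; 5 of these arrays were Trib1 hi 3 and 3 were Trib1 null 1. Trib1 hi 3 stood above its group for Cbs (57.4, next 6.60), Slc7a11 (332, next 18.3), Ahcyl2 (18.3, next 3.65) and Hmox1 (241, next 10.6), all below 500, and below its group for Nfe2l2 (2728, next 3214). Trib1 null 1 stood above its group for Slc7a11 (38.8, next 4.64), Gss (415, next 298) and Adi1 (1347, next 1027). The background control probe set was brightest on the same arrays, at 379 and 335, and its part in these values was not tested.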

How the results depend on the processing

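Gclm and Gsr, not past the threshold as reported, were lower after quantile normalization (log2 difference -0.27 and -0.20) and with equal 95th percentiles (-0.25 and -0.23), and Slc7a11 was higher after quantile normalization (2.75). Gss, lower as reported (-2.31), missed the threshold with these scalings (-0.14 and -2.39), with pseudocounts of 16 (-1.94) and 64 (-1.33), and at -2.31 with no filter, with the filter at the 60th percentile, with the mean of probe sets and without the trend; leaving out 1 array gave -3.21 to -1.64. The count of lower genes among the 9 was thus 2 with either scaling (Gclm and Gsr), 0 under the settings that lost Gss and with floors of 500 and 1000 (limma; 0 to 1 at an unadjusted p under 0.05), and 0 to 1 with an array left out. With both floors Cbs, Slc7a11 and Gss gave no value. Mfsd12 turned from lower to higher with the mean of probe sets (0.12). Of the other comparisons of the 9 genes, 144 kept their direction and side of the threshold. With the replicate number as a block 1284 genes were higher and 2346 lower, and the 9 genes kept their calls. The deviations of same-numbered arrays from their group means correlated at -0.51, 0.49, -0.29 and 0.37, so the numbers were not taken as pairs. Leaving out Trib1 hi 3 gave 2103 higher and 3768 lower genes. Below an intensity of 500 background limits what can be read, so low readings of Cbs, Slc7a11 and Gss do not show absence.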

Other observations

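Several enzymes of the redox lists have a cytosolic and a mitochondrial form, and pairs among the genes tested were looked at after their values were seen, without a test of their own and without the alternative settings. Cytosolic Idh1 fell 2.34-fold in the arrays labelled Trib1 hi, whereas mitochondrial Idh2 rose 1.34-fold (3495 ± 324 against 2610.1 ± 105, adjusted p = 0.000594). Cytosolic Prdx2 fell 1.59-fold, whereas mitochondrial Prdx3 rose 1.45-fold (5080 ± 760.0 against 3476 ± 18.7, adjusted p = 7.67e-05). For thioredoxin itself, mitochondrial Txn2 rose by a log2 difference of 0.58 (2370 ± 112 against 1586 ± 101, adjusted p = 1.17e-05), and cytosolic Txn1 read 18245 ± 3151 against 20405 ± 1423 (adjusted p = 0.468). Other genes went otherwise. Glutaredoxins went both ways in each compartment. Of the cytosolic ones, Glrx fell 2.41-fold and Glrx3 rose 1.32-fold (adjusted p = 0.00143). Of the mitochondrial ones, Glrx2 fell 1.19-fold with overlapping groups (adjusted p = 0.0476). Glrx5, also mitochondrial, rose 1.32-fold (5538 ± 749 against 4153 ± 245, adjusted p = 0.00201). Cytosolic Nadk fell 1.26-fold (adjusted p = 0.0123), as did mitochondrial Nadk2 (2.02-fold, a call lost when its probe sets were averaged, adjusted p = 0.902). Cytosolic Txnrd1 rose while mitochondrial Txnrd2 read 227 ± 221 against 217 ± 97.2 (adjusted p = 0.735). Txnrd2 exceeded 500 on Trib1 hi 3 alone (533), the array with the brightest background control.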
